A study of Mus musculus with 7 samples.

Results

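A list of 10 genes of insulin signalling was chosen by name for their place in the pathway, with earlier results of these data known. Of the 10, 8 had a probe set with a single gene name: Insr, Irs1, Irs2, Grb2, Pik3r1, Akt1, Akt2 and Foxo3. Each was read by 1 probe set, among 8251 named genes in all. Foxo1 and Gsk3b were not analysed here. Each of 7 Affymetrix U74Av2 mouse arrays read total RNA from the liver of a female mouse. The mice ate without restriction and were killed at 24 to 26 months of age, and the labels call them phenotypically normal, of genotype +/+ or +/df. They form 1 group, named after its series title Normal Ad Libitum, with replicates numbered 1, 2, 3, 4, 6, 7 and 8, so that no contrast between groups could be made. The description field of every sample names the dwarf genotype df/df instead, whose mice lack growth hormone; the titles decided the group here. Igf1, which the liver makes under growth hormone, had a signal of 8348 to 9553.

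Insulin binds a receptor tyrosine kinase, which phosphorylates the docking proteins Irs1 and Irs2. These recruit phosphoinositide kinase (PI3K) through its regulatory subunit, and the lipid that it makes brings Akt kinases to the membrane. In liver, Akt inhibits glycogen synthase kinase and keeps FoxO transcription factors out of the nucleus, which lowers genes of glucose release such as Pck1 and G6pc as well as Igfbp1 and Irs2 itself, while Srebf1 and Fasn rise.

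Values are scaled signals on a linear scale, with the mean of each array, after trimming 2% at each end, at 500.4. A probe set below 0.1 of that mean (50.04) was taken as at the floor, and 27.6% to 29.7% of all probe sets lay there on each array. Genes with a mean signal of at least 200.1 were tested, 4481 in all. Alb, the main plasma protein of hepatocytes, had 31853 ± 3080 (SD, n = 7), and all 5 measured hepatocyte markers passed this filter. The summed signal of 8 skeletal muscle markers was 9696 on replicate 1 and 4551 on replicate 2, against 827 to 1215 on the other 5 arrays. Acta1 made up 5991 and 2034 of the sums on replicates 1 and 2. Atp2a1, Myl1, Mb and Tnnt3 were also highest on those arrays. Ckm and Myh4 were instead lowest on replicate 1, at 143.8 and 102.6. Mylpf had 318.8 on replicate 4, against 322.4 and 307.0 on replicates 1 and 2. Macrophage markers summed to 4451 to 5809, endothelial to 2535 to 3962, T cell to 313.4 to 502.3 and B cell to 1125 to 1485. The 5 measured adipocyte markers summed to 1620 to 2289, of which Lep made up 1127 to 1955. Of the other adipocyte markers, Adipoq, Retn and Lpl were highest on the same replicates 1 and 2. Adipoq had 242.1 and 134.2 there, against 47.6 to 110.7 on the other 5 arrays, and Lpl had 271.7 and 299.8, against 100.3 to 180.8. Retn lay below the floor on 6 arrays, replicate 2 among them. Fabp4 differed, at 170.4 on replicate 4, 141.2 and 130.9 on replicates 1 and 2, and 67.3 to 139.8 on replicates 3, 6, 7 and 8. Spike-in controls fell in 2 array sets: their mean log2 signal was 10.64 to 10.97 for replicates 1 to 4, but 10.20 to 10.24 for replicates 6 to 8. Signals of different probe sets do not rank transcript amounts, so genes are not set against each other by level.

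Of the 8 measured genes, 5 passed the filter and were tested for spread between animals: Grb2, Pik3r1, Akt1, Akt2 and Foxo3. The receptor and both docking proteins were too dim. They lay at or close to the floor, where signal cannot be told from background without detection calls. In whole liver, fewer cells of a type and less RNA per cell cannot be told apart.

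**Figure D1:**
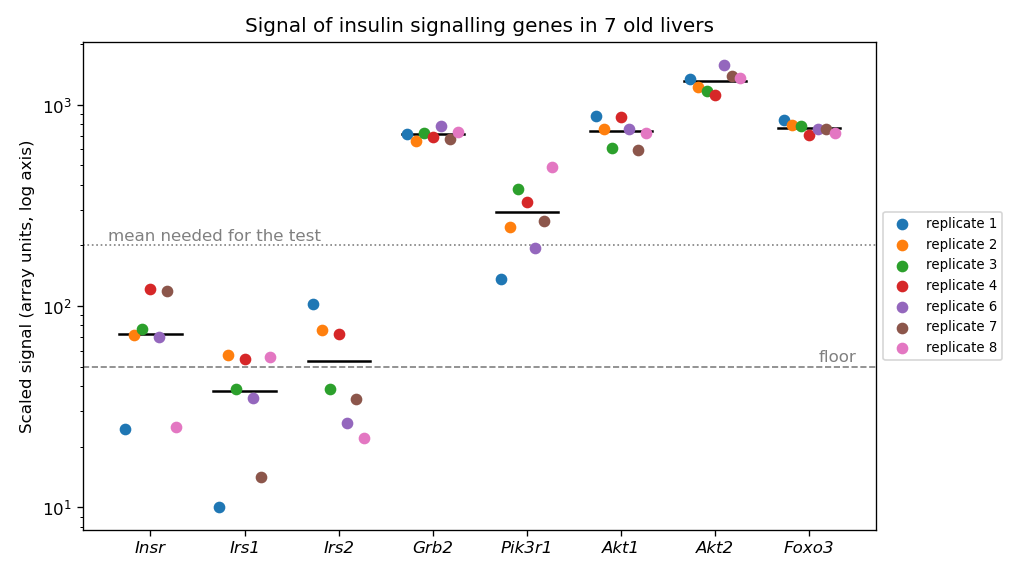
Scaled signal (array units, log axis) of the 8 insulin signalling genes, 1 point per replicate, with the mean as a bar. The dashed line is the floor of 50.04 and the dotted line the mean of 200.1 needed for the test. Insr, Irs1 and Irs2 lie around the floor and the other 5 genes lie above it on all arrays.

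Insr, the insulin receptor (NCBI gene 16337), had signals of 24.4, 72.0, 76.8, 121.7, 70.4, 119.0 and 25.1 on replicates 1, 2, 3, 4, 6, 7 and 8. It was at or above the floor on 5 of 7 arrays and below it on replicates 1 and 8. Its mean was 72.8 ± 39.1 (SD, n = 7). A low signal of 1 probe set does not show that the transcript is missing, since probe sets differ in how strongly they bind.

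Irs1, a docking protein for the receptor (NCBI gene 16367), had 9.9997, 56.9, 38.9, 54.6, 35.0, 14.1 and 55.9 on the same replicates in that order. It was above the floor on 3 arrays, replicates 2, 4 and 8, and exceeded it by little there. Its mean was 37.9 ± 19.7 (SD, n = 7).

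Irs2, the second docking protein and one that insulin lowers in liver (NCBI gene 384783), had 102.5, 76.0, 38.7, 72.3, 26.3, 34.5 and 22.2. It was above the floor on replicates 1, 2 and 4 and below it on the other 4. Its mean was 53.2 ± 30.4 (SD, n = 7). All 4 arrays of the set with the brighter spike-in controls, at 38.7 to 102.5, lay above all 3 of the other set, at 22.2 to 34.5, so the animals and the array set cannot be told apart here. Replicates 1 and 2 were also those with a high summed muscle signal, but replicate 4, with a sum of 1215, was not. The muscle marker Mylpf, at 318.8 on replicate 4, was about as high there as on replicates 1 and 2. The adipocyte marker Adipoq had 242.1, 134.2, 89.8, 110.7, 85.8, 62.1 and 47.6 on replicates 1, 2, 3, 4, 6, 7 and 8, and was highest on replicates 1, 2 and 4, as Irs2 was. Lpl and the mostly floored Retn were also highest on those arrays. Fabp4 was not, with 139.8 on replicate 6 against 130.9 on replicate 2, and Lep was lowest on replicates 4, 1 and 2. The part of muscle or fat RNA in the Irs2 signal was not tested.

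The dim Irs2 signal was set against liver genes that respond to insulin. Igfbp1, a secreted binding protein of Igf1 that FoxO factors raise, had 815, 599.6, 310.5, 1310, 255.6, 272.5 and 223.2 on replicates 1, 2, 3, 4, 6, 7 and 8. It was highest on replicates 4, 1 and 2, the same 3 on which Irs2 lay above the floor. Like Irs2 it separated by array set, at 310.5 to 1310 on replicates 1 to 4 against 223.2 to 272.5 on replicates 6 to 8, so that animals and array set cannot be told apart for the shared order either. A second Igfbp1 probe set lay below the floor on every array, and the one used has a suffix for probe sets that can read related sequences.

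Pck1, an enzyme of gluconeogenesis, had 3462, 3817, 4844, 3408, 5141, 3991 and 4899 on these replicates, and was lowest on the same replicates 4, 1 and 2. G6pc, which releases free glucose, had 3257, 2611, 4237, 3733, 5561, 2742 and 6834. Its 3 values on replicates 1, 2 and 4 overlapped those of the other 4. Since Irs2 lay so close to the floor, its order over the animals is a description of these signals.

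Insr, Irs1 and Irs2 did not pass the filter, so their planned correlations with targets could not be made with it. Without the filter, 2 of 15 pairs of these genes with Igfbp1, G6pc, Pck1, Srebf1 and Fasn had an unadjusted p under 0.05, and 0 had an adjusted p under 0.05 (exact two-sided permutation test over all pairings, smallest Benjamini-Hochberg adjusted p = 0.286). The 2 pairs were Irs2 with Igfbp1 (exact permutation p = 0.0190, adjusted p = 0.286) and Irs2 with Pck1 (exact permutation p = 0.0476, adjusted p = 0.357). For Irs2 with G6pc, Srebf1 and Fasn the exact permutation p was 0.233, 0.152 and 0.190. With array-set means removed, 0 of 15 pairs had an unadjusted p under 0.05, where the permutation p is approximate. The Irs2 values form 3 arrays above the floor and 4 at it, so no coefficient is given and a graded relation cannot be tested.

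**Figure D2:**
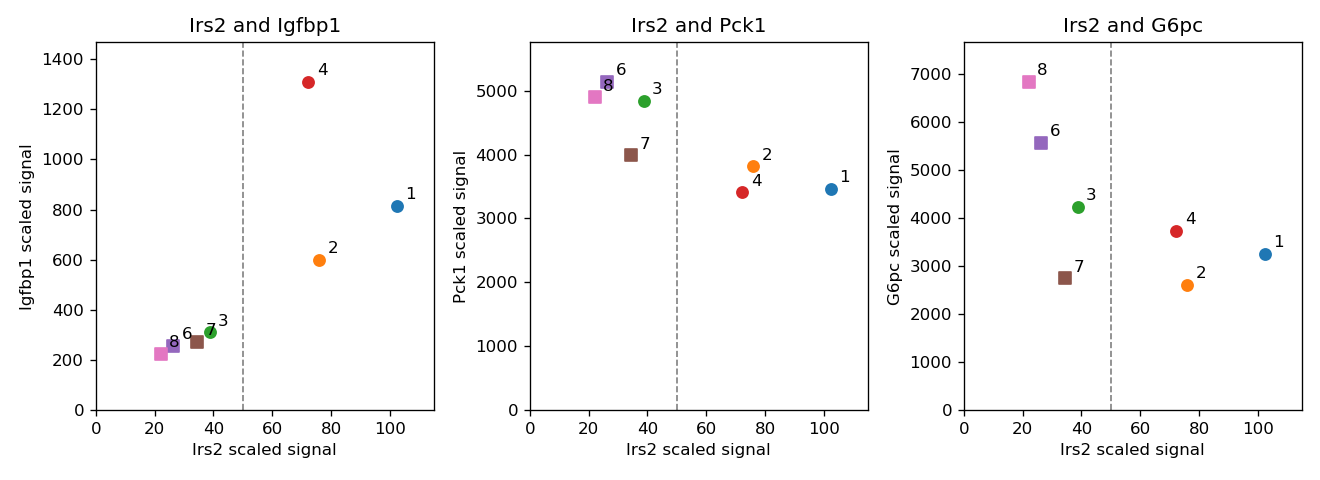
Scaled signal of Irs2 against Igfbp1, Pck1 and G6pc, 1 point per replicate and labelled with its number, with circles for the array set with brighter spike-in controls, squares for the other and a dashed line at the floor. On replicates 1, 2 and 4, Irs2 is above the floor, Igfbp1 is at 599.6 or more and Pck1 at 3817 or less.

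Promoter sequence of these genes shows what some of them share. The motif CAAAACA, which is the core of the insulin response sequence known from the Igfbp1 promoter, was searched on both strands, where its reverse complement reads TGTTTTG, in the 250 bases before each annotated gene start in RefSeq, build GRCm38.p6. Of the 16 genes, the 10 listed and 6 targets, 14 had such windows, 22 in all, and Insr had none. The motif lay in 4 of these 22 windows, 1 each of Irs1, Irs2, Igfbp1 and G6pc. It occurs in 5.56% of all 32851 such windows, and the difference in share was not tested. The 4 windows are shown because they set both dim docking protein genes beside Igfbp1 and G6pc. The window of Pck1, the other target that FoxO factors raise, held 0 matches. They are chr1:82291440-82291689 (minus strand) for Irs1, chr8:11008930-11009179 (minus strand) for Irs2, chr11:7197537-7197786 (plus strand) for Igfbp1 and chr11:101367466-101367715 (plus strand) for G6pc, each 5′ to 3′ and ending just before the gene start, with the motif in capitals.
Irs1: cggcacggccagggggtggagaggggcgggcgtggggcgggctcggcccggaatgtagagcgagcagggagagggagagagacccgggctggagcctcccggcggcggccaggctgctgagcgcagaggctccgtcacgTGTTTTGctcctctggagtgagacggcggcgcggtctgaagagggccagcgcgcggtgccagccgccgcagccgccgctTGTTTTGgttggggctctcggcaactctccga
Irs2: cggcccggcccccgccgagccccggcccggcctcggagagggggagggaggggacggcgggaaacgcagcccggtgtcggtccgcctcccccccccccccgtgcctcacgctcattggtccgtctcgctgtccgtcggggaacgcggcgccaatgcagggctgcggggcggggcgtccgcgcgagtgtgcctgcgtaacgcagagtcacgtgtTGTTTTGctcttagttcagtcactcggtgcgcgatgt
Igfbp1: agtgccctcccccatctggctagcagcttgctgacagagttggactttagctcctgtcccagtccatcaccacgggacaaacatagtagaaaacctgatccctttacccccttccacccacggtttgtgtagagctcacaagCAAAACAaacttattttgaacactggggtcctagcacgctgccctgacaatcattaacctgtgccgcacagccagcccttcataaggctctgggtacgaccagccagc
G6pc: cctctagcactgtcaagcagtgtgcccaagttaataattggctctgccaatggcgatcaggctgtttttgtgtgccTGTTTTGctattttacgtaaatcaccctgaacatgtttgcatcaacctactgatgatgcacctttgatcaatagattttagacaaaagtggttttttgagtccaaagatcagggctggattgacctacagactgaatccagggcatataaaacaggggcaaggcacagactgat
Irs1 holds the motif at 2 places, with the first base 111 and 32 bases before the gene start, and Irs2 at 1, 37 bases before it. In Igfbp1 it begins 108 bases and in G6pc 174 bases before the start. A further FoxO motif, GTAAACA, with the reverse complement TGTTTAC, occurs in 3.17% of all windows and among the 14 genes in 1 of the windows of Akt1 alone. A match is a description of the letters and not a bound site, and its use was not tested.

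Grb2, the adaptor that links receptors to Ras (NCBI gene 14784), was among the steadiest of the tested members. It had 716.6, 656.9, 725.4, 688.5, 785.4, 670.9 and 729.8, a mean of 710.5 ± 43.1 (SD, n = 7). The highest value, on replicate 6, was 1.20-fold the lowest, on replicate 2. The SD of its log2 signal was 0.09 (95% interval 0.06 to 0.19), against 0.17 expected for genes of its level.

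Pik3r1, the main regulatory subunit of PI3K (NCBI gene 18708), varied more between animals than any other tested member. It had 136.7, 245.3, 380.4, 329.5, 194.3, 263.9 and 487.5 on replicates 1, 2, 3, 4, 6, 7 and 8, with a mean of 291.1 ± 118.4 (SD, n = 7). The lowest value, on replicate 1, and the highest, on replicate 8, differed 3.57-fold, and the other 5 lay between 194.3 and 380.4 without a gap. The array sets overlapped, at 136.7 to 380.4 in the set of replicates 1 to 4 and 194.3 to 487.5 in the other. The SD of its log2 signal was 0.61 (95% interval 0.40 to 1.35), 2.52 times the 0.24 expected at its level.

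That spread did not pass the test over all genes. In the limma-based test, the unadjusted p of Pik3r1 was 0.0236 and its adjusted p over 4481 genes was 0.571. It was the only one of the 5 tested members with an unadjusted p under 0.05, against 6.72% of all 4481, and 0 of 5 had an adjusted p under 0.05, as for 0% of all 4481. Over the alternatives with a filter the adjusted p of Pik3r1 ranged from 0.469 to 0.826. Without the filter it was 0.222, a value that Akt1 and Akt2 shared there, with an unadjusted p of 0.0576 for Pik3r1. In that setting the limma-based unadjusted p of Grb2 and Foxo3 was 0.198 and 0.202, against 0.936 and 0.943 with the filter, at the same SDs. The p-values without the filter are therefore not comparable with the others. Without replicate 1 its log2 SD was 0.48 (unadjusted p = 0.0517) and without replicate 8 it was 0.53 (unadjusted p = 0.0663).

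Akt1, a kinase of the pathway found in most tissues (NCBI gene 11651), had 880.6, 754.0, 610.9, 869.7, 759.4, 593.0 and 719.2. It was highest on replicates 1 and 4 and lowest on replicates 7 and 3. Its mean was 741.0 ± 112.4 (SD, n = 7), with a log2 SD of 0.22 (95% interval 0.14 to 0.49), 1.32 times that expected (limma-based adjusted p = 0.990).

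Akt2, the Akt kinase most tied to insulin action on glucose (NCBI gene 11652), had 1345, 1226, 1160, 1118, 1579, 1386 and 1357. The 3 arrays of replicates 6 to 8, at 1357 to 1579, lay above all 4 of replicates 1 to 4, at 1118 to 1345. The nearest values of the 2 sets were close, 1345 on replicate 1 and 1357 on replicate 8. Animals and array set cannot be told apart for Akt2 either. Its mean was 1310 ± 156.9 (SD, n = 7), and its log2 SD was 0.17 (95% interval 0.11 to 0.38), against 0.16 expected.

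Foxo3, a FoxO transcription factor that Akt restrains (NCBI gene 56484), was as steady as Grb2. It had 841.4, 790.9, 784.2, 709.2, 752.2, 759.8 and 722.3, a mean of 765.7 ± 44.7 (SD, n = 7). The highest value, on replicate 1, was 1.19-fold the lowest, on replicate 4. Its log2 SD was 0.08 (95% interval 0.05 to 0.18), against 0.17 expected.

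**Figure D3:**
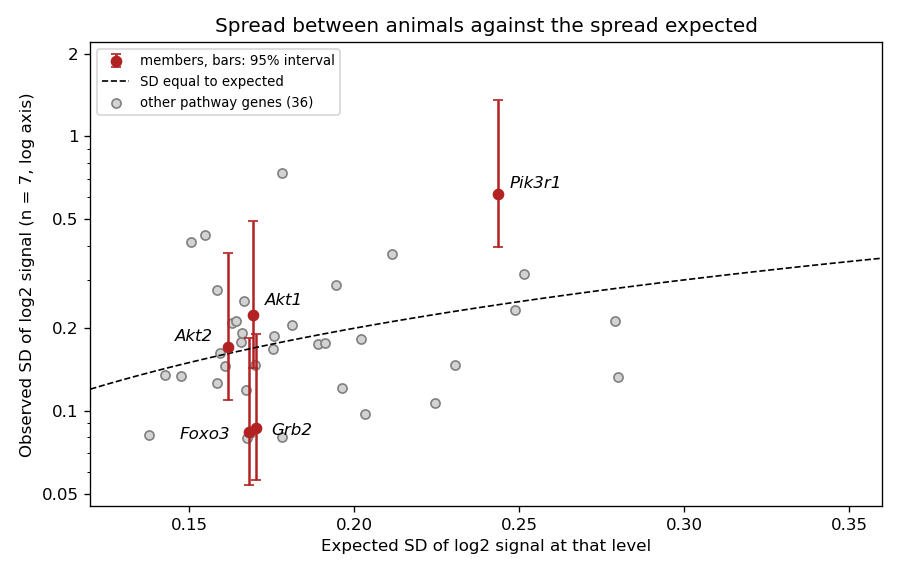
Observed SD of log2 signal over 7 arrays (log axis) against the SD expected for genes of that level, for the 5 tested members (red, bars give the 95% interval of the SD) and the 36 other tested pathway genes (grey). The dashed line marks equality. Pik3r1 lies above it at 0.61 against 0.24, Grb2 and Foxo3 lie below it.

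Members were compared with array measures that are no part of the biology, with 5 genes and 3 measures in 15 relations. Akt1 followed the ratio of 3' to 5' probe set signal for Gapdh, a measure of how complete the labelled RNA is: r = 0.985 and rho = 1 over 7 arrays (exact two-sided permutation p = 0.0002 for r, the smallest that 7 arrays can give), and r = 0.946 without replicates 3 and 7. The ratio was 0.907 and 0.899 on replicates 1 and 4, and 0.788 and 0.804 on replicates 7 and 3. The same ratio for beta-actin ordered the arrays differently, at 1.336 and 1.738 on replicates 1 and 4, and 1.782 and 1.564 on replicates 7 and 3. With the beta-actin ratio Akt1 had r = -0.354 and rho = -0.286 (exact permutation p = 0.419 for r). Of 4481 tested genes Akt1 had the second largest absolute r with the Gapdh ratio. For that ratio its adjusted p was 0.00298 over the 15 relations and 0.296 over all 4481 genes, of which 6.72% had an unadjusted p under 0.05. The part of RNA quality in the Akt1 values was not tested.

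Akt2 had r = -0.832 and rho = -0.857 with the mean spike-in signal (exact permutation p = 0.0175 and 0.0238), and r = -0.898 without replicates 4 and 6. Its adjusted p over all 4481 genes was 0.773, where 5.96% had an unadjusted p under 0.05. Foxo3 had r = -0.809 and rho = -0.714 with the same ratio for beta-actin (exact permutation p = 0.0264 and 0.0881), and r = -0.692 without replicates 1 and 4, with an adjusted p of 0.877 over all genes, of which 5.38% had an unadjusted p under 0.05. Pik3r1 and Grb2 had no relation with an unadjusted p under 0.05 to any of the 3 measures.

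**Figure D4:**
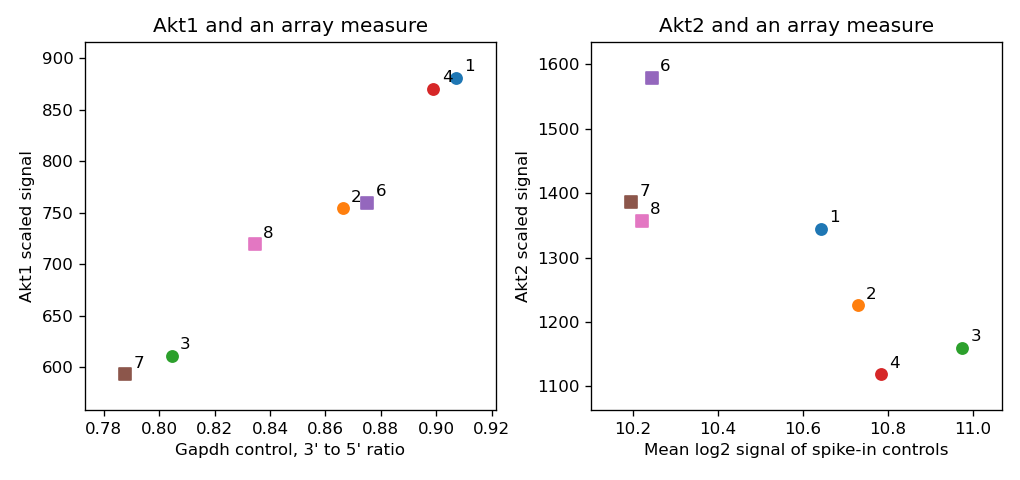
Left, scaled signal of Akt1 against the Gapdh ratio of 3' to 5' signal. Right, scaled signal of Akt2 against the mean log2 signal of spike-in controls. Each point is 1 replicate labelled with its number, with circles for replicates 1 to 4 and squares for replicates 6 to 8. Akt1 and the ratio give the 7 arrays the same order, and the squares lie above all circles for Akt2.

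The tested members did not vary together in a way that passed a test. Of 10 pairs, 0 had an unadjusted p under 0.05, and r ranged from -0.695 for Pik3r1 with Foxo3 (rho = -0.571, exact permutation p = 0.0790 for r, adjusted p = 0.790) to 0.569 for Grb2 with Akt2. The r of Pik3r1 with Foxo3 was -0.0734 without replicates 1 and 8, so it rests on those arrays. With array-set means removed, where the permutation p is approximate, 2 of 10 pairs had an unadjusted p under 0.05, and 0 passed after adjustment. They were Pik3r1 with Akt2 (r = -0.900, rho = -0.857, approximate permutation p = 0.00853, adjusted p = 0.0853) and Akt2 with Foxo3 (r = 0.751, rho = 0.857, approximate permutation p = 0.0381, adjusted p = 0.190).

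The 5 tested members were also set against the 5 measured targets, 25 pairs added after the data were seen. Grb2 had r = -0.857 with Srebf1, the regulator of fat synthesis (rho = -0.857, exact permutation p = 0.00774, adjusted p = 0.193), but -0.511 with median centring (exact permutation p = 0.254, adjusted p = 0.752; range of the adjusted p over 18 alternatives 0.104 to 0.752), and r = 0.806 with G6pc (rho = 0.929, exact permutation p = 0.0274, adjusted p = 0.342). Without replicates 2 and 6 these were -0.586 and 0.740. Grb2 itself ranged only 1.20-fold over the animals. No pair passed after adjustment. Akt1 had r = 0.748 with Fasn, the fatty acid synthase (rho = 0.50, exact permutation p = 0.0532, adjusted p = 0.443), but 0.197 without replicates 3 and 7. With Igfbp1, Akt1 had r = 0.741 (rho = 0.571, exact permutation p = 0.0720, adjusted p = 0.450), and 0.861 without the same arrays. With array-set means removed, where the permutation p is approximate, 4 of 25 pairs had an unadjusted p under 0.05. After adjustment 0 of these passed (smallest adjusted p = 0.281).

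Genes whose log2 signals ran most like each tested member over the 7 arrays were picked from 4476 others by Pearson's r, as a description. They were Ddx3x (r = 0.957) and Ubac1 (0.954) for Pik3r1, Dnajb2 (0.960) and Mrpl33 (0.956) for Akt1, Arf3 (0.948) and Wdr92 (0.940) for Akt2, Ndel1 (0.957) and Tcea1 (0.953) for Grb2, and Idh2 (0.951) and Igfbp4 (0.951) for Foxo3. Between 9 and 16 genes had r over 0.9 with each member. Ddx3x, an RNA helicase, had 1010 on replicate 1 and 1861 on replicate 8, the arrays on which Pik3r1 was lowest and highest.

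The rest of the pathway was read from a list of 87 further genes, of which 61 were measured and 36 tested. An unadjusted p under 0.05 for spread was found for 3 of 36 (8.33%, against 6.72% of all 4481), and an adjusted p under 0.05 for 0 of 36. The median log2 SD was 0.17 for the 5 tested members, 0.18 for the 36 pathway genes and 0.18 for all 4481 genes. The 5 members and the 36 genes thus lay near the spread of all genes.

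At the level of receptors and adaptors, an unadjusted p under 0.05 was found for 1 of 4 tested genes, against 6.72% of all 4481. Grb7, an adaptor of receptor tyrosine kinases, had 2810, 3111, 1787, 2998, 1646, 2145 and 1493 on replicates 1, 2, 3, 4, 6, 7 and 8. It was highest on replicates 2, 4 and 1, those on which Irs2 lay above the floor (limma adjusted p = 0.499, unadjusted p = 0.0138). Ceacam1, which promotes insulin clearance by the liver, had 1779 ± 340.5 and the adaptor Shc1 had 805.4 ± 66.3 (SD, n = 7 each).

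In the PI3K step, none of the 4 tested genes reached an unadjusted p under 0.05. Inppl1 and Inpp5k, phosphatases of inositol lipids, had 841.5 ± 144.3 and 497.8 ± 60.1, Pdpk1, the kinase that activates Akt, had 566.0 ± 76.4, and the catalytic subunit Pik3ca had 264.7 ± 42.2 (SD, n = 7 each). Pik3r1 had the larger log2 SD, 0.61, against 0.18 to 0.25 for these 4.

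Of phosphatases and inhibitors, 1 of 6 had an unadjusted p under 0.05, against 6.72% of all 4481 genes. Socs2, a feedback inhibitor of growth hormone signalling, had 627.6, 234.2, 573.6, 531.5, 712.0, 1321 and 580.3, highest on replicate 7 and lowest on replicate 2 (limma adjusted p = 0.343, unadjusted p = 0.00214). Ptpn1, which dephosphorylates the insulin receptor, had 514.0 and 484.9 on replicates 8 and 1, against 267.0 to 358.9 on the other 5 (adjusted p = 0.942 by limma). On those 2 arrays Insr lay below the floor. They also had the largest shares of all probe sets below it, 29.7% on replicate 1 and 29.2% on replicate 8. The other arrays had 27.6% to 28.5%. A relation of Ptpn1 with Insr was not tested. Ppp2r1a, a scaffold of protein phosphatase, had 1747 ± 158.6 (SD, n = 7).

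Kinases below PI3K had 0 of 5 genes with an unadjusted p under 0.05. Gsk3a, the paralog of Gsk3b, had 3609 ± 339.5, the atypical protein kinase C gene Prkcz had 917.6 ± 111.5, Prkcd had 755.5 ± 43.2 and Sgk1, a kinase related to Akt, had 457.7 ± 93.1 (SD, n = 7 each). The mTOR arm was as steady, with 0 of 5 and log2 SDs of 0.08 to 0.21. There Eif4ebp2, a repressor of translation, had 4821 ± 463.4, Tsc2 795.4 ± 44.6, Mtor 621.7 ± 84.6 and Tsc1 223.4 ± 32.5 (SD, n = 7 each). The Ras and MAP kinase arm had 0 of 4, with log2 SDs of 0.08 to 0.19 and Araf, a Raf kinase, at 871.3 ± 111.6.

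Of FoxO factors and partners, 1 of 5 had an unadjusted p under 0.05, against 6.72% of all 4481 genes. Ywhaz, a 14-3-3 protein of the kind that holds phosphorylated FoxO in the cytoplasm, had 2755, 3283, 2361, 1809, 4046, 3971 and 3007, highest on replicates 6 and 7 and lowest on replicate 4 (limma adjusted p = 0.505, unadjusted p = 0.0160). Foxo4 had 1184 ± 175.8, Foxa2, another forkhead factor of liver, 1068 ± 146.2 and Ywhab 1661 ± 182.7 (SD, n = 7 each). Of glycogen and glucose effectors, 0 of 3 had an unadjusted p under 0.05. The glucose transporter Slc2a2 had 6478 ± 358.6, Gys1, a glycogen synthase gene, 625.8 ± 73.3 and Phka2 262.5 ± 57.7 (SD, n = 7 each). Gys2, the other glycogen synthase gene, was not analysed.

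The median log2 SD was 0.52 for the 5 targets and 0.17 for the 5 tested members, with overlap between them, since Srebf1 at 0.21 lay below Akt1 at 0.22 and only Igfbp1 and Fasn lay above Pik3r1 at 0.61. The difference between these lists was not tested. Fasn had 5460, 8777, 2006, 8686, 5295, 3772 and 5476 on replicates 1, 2, 3, 4, 6, 7 and 8, lowest on replicate 3 and highest on replicates 2 and 4. Srebf1 had 6061, 6329, 4621, 5785, 4297, 6043 and 5460 on the same arrays, lowest on replicates 6 and 3. Of the 5 targets, 3 had an unadjusted p under 0.05 in the limma-based test, against 6.72% of all 4481 genes. They were Igfbp1 with a log2 SD of 0.98, Fasn with 0.73 and G6pc with 0.52. After adjustment, 0 of the 5 had a p under 0.05, as for 0% of all 4481. Pck1 had 0.25 and Srebf1 0.21. All 5 exceeded the SD expected at their level, as did 3 of the 5 members and 49.1% of all tested genes.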

How the data were processed

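Per the labels, total liver RNA was hybridised to 1-colour Affymetrix U74Av2 arrays and scanned. The deposited values are linear intensities, 1 per probe set, which the authors had scaled, since trimmed means are equal on all 7 arrays; neither software nor target is given in the sources used here. Of 12488 probe sets, 10833 non-control ones had a single gene symbol and were used. The 396 with several symbols, the 1237 with none and 22 control probe sets with a symbol named no gene here. The number of arrays limits the precision, and since the labels describe 1 mouse per sample but do not state that no mouse was used again, p-values measure only the spread between these samples, which may be technical.

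Arrays were set to 1 trimmed mean, floored at 0.1 of it and put on log2. The probe set with the highest mean stood for a gene, and genes at 0.4 of the mean or more were tested. The spread test used limma 3.58.1 in R 4.3.3: an intercept-only fit, each variance against a robust prior that follows the level, an F test of the upper tail, and p-values adjusted by Benjamini-Hochberg over all genes tested. Intervals of SDs are chi-square intervals. Correlations used log2 signals, exact permutations and adjustment over the pairs of each family, and r was repeated without the 2 arrays farthest from the median of the first gene. With array-set means removed, the permutation p is approximate. Steps were tested on simulated data. Tools were Python 3.11.15, numpy 2.4.6, pandas 2.3.3, scipy 1.17.1 and matplotlib 3.10.9.

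The members and gene lists were chosen with earlier results of these data known. Named were all members and targets, and in each pathway role up to 3 genes of the highest signal and 2 of the largest SD. The planned rule for genes most like a member covered only Insr, Irs1, Irs2 and Foxo1, none of which was tested, so the tested members were used after the data were seen, as were the promoter search and the pairs of tested members with targets.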

Additional observations from a re-analysis of the deposited data

Results flagged for a closer look

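Of 43 genes checked for a single array far from the others (8 members, 5 targets and 30 pathway genes), none of the members and 1 pathway gene met Dixon's criterion for 7 samples, where chance gives about 1 in 20. Ptprf, a receptor-type phosphatase, had 1150 on replicate 8, against 1471 to 1526 on the other 6 arrays.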

How the results depend on the processing

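Under 20 alternatives (scaling, floor, filter, probe sets, priors, array-set means and each replicate left out) 0 members passed the spread test in each, as in the values reported. Over all 4481 genes 0 passed in the values reported, where the smallest limma-based adjusted p was 0.0959. At most 1 gene passed under any alternative. The 0 for members was thus nearly fixed in advance and does not show that they are steady. The count of members with an unadjusted p under 0.05 was 0, against 1, with a filter of 0.8, which drops Pik3r1, without the filter, and without replicate 1 or replicate 8. The mean signals of the 8 members moved by less than 1 SD under all 10 alternatives run for them. The r of Akt1 with the Gapdh ratio ranged from 0.959 with median centring to 0.993 without replicate 8. That of Grb2 with Srebf1 was -0.511 with median centring, and the cause was not tested. Pairs of tested members with targets past adjustment ranged from 0 to 1 when each replicate was left out: without replicate 4, Foxo3 with Igfbp1 had r = 0.919 (exact permutation p = 0.00139, adjusted p = 0.0347), against 0.123 with it, so replicate 4 decides that value. Pairs of Insr, Irs1 and Irs2 with targets past adjustment numbered 0 under 14 alternatives without the filter, which were chosen after seeing the data. No paired analysis was possible because there is 1 group. Agreement of probe sets could not be tested, since each member has 1 probe set. Depth limits Insr, Irs1 and Irs2, whose signals lie around the floor, so a difference between animals there was not detectable apart from background.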
